A study of Mus musculus with 6 samples.

Results

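The 9 genes described here are components and response genes of the leukaemia inhibitory factor (LIF) pathway in mouse embryonic stem cells (mESC). They were chosen by name, with no threshold on their values but with earlier results of these data known. They were Lif, Lifr, Il6st, Jak1, Stat3, Socs3, Pim1, Mras and Bcl3, out of 42450 genes listed. All 9 passed the filter on low counts. Total RNA was sequenced from 3 libraries of wild-type E14tg2a.4 cells (WT) and 3 libraries of Srrm2+/- cells, a gene-trap derivative of the same male line that carries a truncation in one allele of Srrm2, a splicing factor gene. The Srrm2+/- cells are a single gene-trap line, so genotype cannot be told apart from other features of that line. Both lines were grown on gelatin, and per the labels serum-free medium with added LIF was used for 24 h or 72 h before collection. The study's methods give one culture time, between these, for the RNA libraries of both genotypes. Per the study's methods the WT stocks were frozen at later passages than the Srrm2+/- stocks, so passage and genotype cannot be told apart.

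LIF is a cytokine that binds the receptor chain LIFR, which then pairs with IL6ST, the signalling chain shared by the interleukin-6 family. The Janus kinase JAK1, bound to the receptor, phosphorylates tyrosines on it, and the transcription factor STAT3 docks there, is phosphorylated, and moves to the nucleus. STAT3 activity sustains self-renewal of mouse ESC in culture, in part through the naive factors Klf4 and Tfcp2l1. STAT3 also induces Socs3, whose product binds the receptor and dampens the signal.

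Libraries held between 54151532 and 69933465 estimated counts. Values are CPM, the counts of a gene per 1000000 counts of the scaled library size, and differences were tested with edgeR across 18905 genes. A gene is said to have risen or fallen where its adjusted p was under 0.05. Srrm2, the targeted gene, was at 91.2, 98.3 and 97.7 CPM in WT and at 62.3, 56.2 and 59.6 CPM in Srrm2+/-, which matched the labels. Of 6 ESC markers (Pou5f1, Sox2, Nanog, Zfp42, Esrrb, Dppa5a), none was at 0. Their summed level was 3882 to 4090 CPM in WT and 3282 to 3406 CPM in Srrm2+/-, and 5 of them fell. Pou5f1 did not pass the test (log2 fold change of Srrm2+/- over WT -0.04, edgeR adjusted p 0.485). Over all genes tested 11.7% fell. Because the RNA came from whole cultures, fewer cells of a type and less RNA per cell cannot be told apart.

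Of the 9 LIF pathway genes, 6 (66.7%) changed, 3 upwards and 3 downwards. Over all genes tested 25.3% changed, 13.6% upwards and 11.7% downwards. Among the 11390 genes at or above the level of the lowest of the 9, the share was 32.8%. A called shift of 0.5 or more on the log2 scale was seen for 2 of the 9, Lif and Mras, against 12.1% of all genes tested. Both receptor chains and Mras fell, Lif, Jak1 and Pim1 rose, and Stat3, Socs3 and Bcl3 did not pass the test. The 3 libraries of each genotype did not overlap for the 6 genes that changed, against 41.4% of all genes tested. The 9 genes were chosen with earlier results known, and the study names Mras from these libraries. Their shares are thus not independent of these data. The median log2 fold change (Srrm2+/- over WT) was -0.05 over the 9 genes and -0.0025 over all genes tested, with changed genes on both sides. The plot of CPM by library shows these values.

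**Figure D1:**
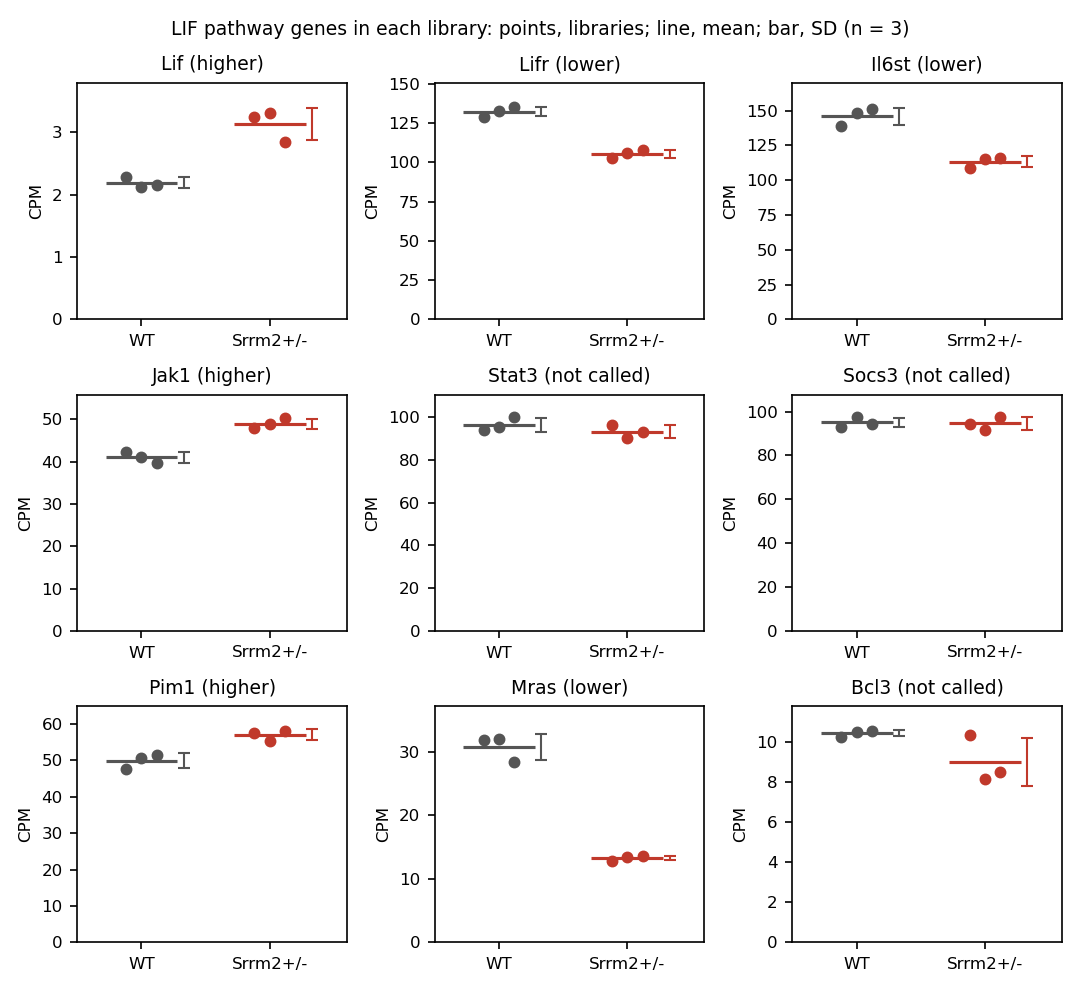
CPM of the 9 LIF pathway genes in each library, with the vertical axis of each panel starting at 0. Points are libraries, lines are means and bars are SD (n = 3), with the call in each panel title. Lifr, Il6st and Mras lie lower in every Srrm2+/- library, Lif, Jak1 and Pim1 lie higher, and Stat3, Socs3 and Bcl3 overlap.

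The ligand was examined first. Lif (ENSMUSG00000034394, chromosome 11, 4257557 to 4272514, GRCm38) was at 2.29, 2.13 and 2.15 CPM in WT, from 115 to 127 estimated counts. It was at 3.24, 3.31 and 2.84 CPM in Srrm2+/-, from 175 to 228 estimated counts. Every Srrm2+/- library lay above every WT library. The mean rose from 2.19 ± 0.0878 to 3.13 ± 0.254 CPM (n = 3 per genotype, SD), a log2 fold change of 0.52 (SE 0.13, 95% interval 0.22 to 0.81, edgeR adjusted p 0.0197). The call was lost at 0.48 to 0.50 when WT replicate 2, WT replicate 3, Srrm2+/- replicate 1 or Srrm2+/- replicate 2 was left out (adjusted p 0.0537 to 0.0644). LIF protein was supplied in the medium, so Lif mRNA does not give the amount of ligand that the cells met.

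The receptor chains fell together. Lifr (ENSMUSG00000054263, chromosome 15, 7090614 to 7197489), which encodes the chain that binds LIF, was at 129, 133 and 135 CPM in WT and at 103, 106 and 108 CPM in Srrm2+/-. Its level in Srrm2+/- was 79.8% of that in WT, a log2 fold change of -0.33 (SE 0.04, 95% interval -0.41 to -0.24, edgeR adjusted p 0.000358). Il6st (ENSMUSG00000021756, chromosome 13, 112464070 to 112510086), which encodes the shared signalling chain, was at 139.2, 148.3 and 150.9 CPM in WT and at 109, 115 and 116 CPM in Srrm2+/-. Its level was 77.6% of that in WT, a log2 fold change of -0.37 (SE 0.04, 95% interval -0.47 to -0.26, edgeR adjusted p 0.000456). Neither call was lost under any of the 15 alternatives, with log2 fold changes of -0.34 to -0.30 for Lifr and -0.40 to -0.34 for Il6st. Counts of both genes came from sequence that is nearly their own, since 0.781% of the 31-base words of Lifr transcripts and 0.514% of those of Il6st occur in transcripts of other genes.

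To compare the receptor chains without any scaling of libraries, ratios of their CPM were taken within each library, a choice made after their values were seen. The ratio of Lifr to Il6st was 0.928, 0.895 and 0.896 in WT and 0.943, 0.923 and 0.931 in Srrm2+/-. These ranges overlapped, and no difference between the falls of the receptor chains was detected beyond the spread of the libraries (means 0.906 ± 0.0192 and 0.932 ± 0.00969, SD, n = 3 each, two-sided exact permutation p 0.2). The ratio of Lifr to Jak1, in contrast, was 3.07, 3.23 and 3.41 in WT and 2.15, 2.18 and 2.15 in Srrm2+/-. The ratio of Il6st to Jak1 was 3.30, 3.61 and 3.80 in WT and 2.28, 2.36 and 2.31 in Srrm2+/-. Neither of these overlapped between genotypes (two-sided exact permutation p 0.1 each, the smallest that 3 against 3 libraries can give). Adjusted over the 3 ratios, the p-values were 0.2, 0.15 and 0.15.

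The kinase moved against the receptors. Jak1 (ENSMUSG00000028530, chromosome 4, 101152367 to 101265282) was at 42.2, 41.1 and 39.7 CPM in WT and at 47.9, 48.8 and 50.2 CPM in Srrm2+/-. Every Srrm2+/- library was above every WT library, and the mean was 119.5% of WT, a log2 fold change of 0.26 (SE 0.04, 95% interval 0.16 to 0.36, edgeR adjusted p 0.00288). The call was kept under all 15 alternatives, between 0.24 and 0.28.

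Stat3, the transcription factor of the pathway, did not pass the test. Stat3 (ENSMUSG00000004040, chromosome 11, 100885098 to 100939540) was at 93.9, 95.4 and 100.1 CPM in WT and at 96.3, 90.5 and 92.9 CPM in Srrm2+/-. The libraries of both genotypes overlapped. The log2 fold change was -0.05 (SE 0.04, 95% interval -0.14 to 0.05, edgeR adjusted p 0.458). Of the 18905 genes tested, 84.9% had a larger absolute log2 fold change. These libraries measure mRNA and not the phosphorylation of STAT3 protein.

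Socs3 (ENSMUSG00000053113, chromosome 11, 117966079 to 117970047), the feedback inhibitor that STAT3 induces, was at 93.2, 97.4 and 94.4 CPM in WT and at 94.5, 91.6 and 97.7 CPM in Srrm2+/-. The genotypes overlapped fully. The log2 fold change was -0.0065 (SE 0.04, 95% interval -0.10 to 0.08, edgeR adjusted p 0.929), and its sign changed under 3 alternatives. Of all genes tested, 97.7% had a larger absolute log2 fold change, so Socs3 was among the genes with the smallest measured difference.

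The other response genes split 3 ways. Pim1 (ENSMUSG00000024014, chromosome 17, 29490753 to 29496112), a serine/threonine kinase gene, was at 47.6, 50.6 and 51.6 CPM in WT and at 57.5, 55.4 and 58.2 CPM in Srrm2+/-. It rose by a log2 fold change of 0.19 (SE 0.05, 95% interval 0.09 to 0.30, edgeR adjusted p 0.0139), the smallest rise among the 9 genes that passed the test. Without Srrm2+/- replicate 3 it was at 0.18 and no longer passed (adjusted p 0.0575). Gm26885, an antisense gene that overlaps 488 exon bases of Pim1 and holds 11.1% of its 31-base words, was listed at 0 counts in every library. In estimated counts a 0 can be a failed estimate, and exchange of counts between these genes was not tested.

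Mras showed the largest difference of the 9 genes. Mras (ENSMUSG00000032470, chromosome 9, 99385420 to 99437381), a GTPase gene of the RAS family, was at 31.8, 32.1 and 28.4 CPM in WT and at 12.9, 13.4 and 13.5 CPM in Srrm2+/-. The lowest WT library was above every Srrm2+/- library by a wide margin, and the mean level was 2.32-fold lower in Srrm2+/-. On the log2 scale the difference was -1.21 (SE 0.06, 95% interval -1.35 to -1.07, edgeR adjusted p 3.4e-06). Among all genes tested 5.59% had a larger absolute log2 fold change. None of the 31-base words of Mras occurs in transcripts of another gene. The study names Mras from these same libraries as a LIF-response gene, so its fall is not independent of that choice.

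Bcl3 (ENSMUSG00000053175, chromosome 7, 19808462 to 19822770), which encodes a nuclear cofactor of the IkB family, was at 10.3, 10.5 and 10.6 CPM in WT and at 10.4, 8.15 and 8.49 CPM in Srrm2+/-. Srrm2+/- replicate 1 lay within the WT range and the other 2 Srrm2+/- libraries lay below it. The log2 fold change was -0.21 (SE 0.10, 95% interval -0.44 to 0.01, edgeR adjusted p 0.16). Without Srrm2+/- replicate 1 it was -0.33 and passed (adjusted p 0.0252). Gm16175, an antisense gene with 4.22% of the 31-base words of Bcl3, held at most 7 counts in a library.

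**Figure D2:**
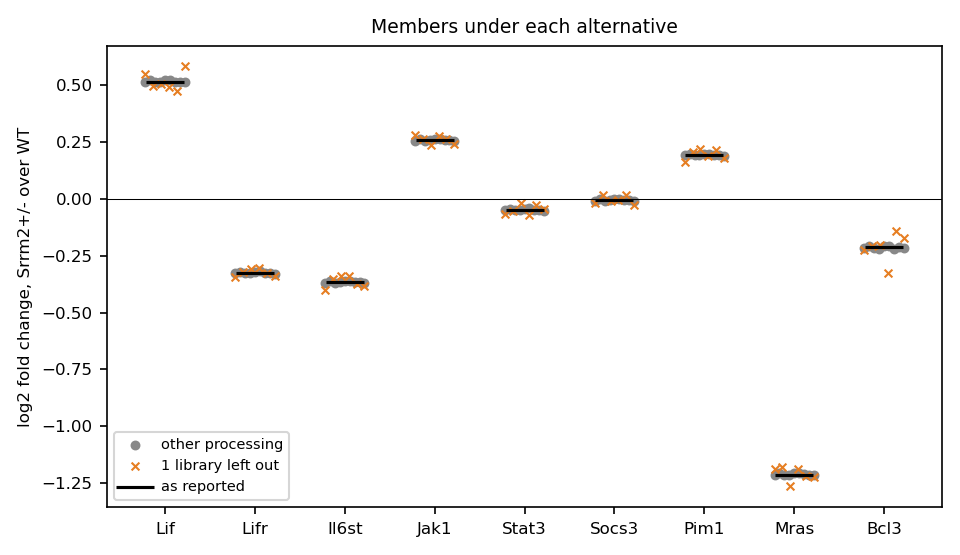
Log2 fold change (Srrm2+/- over WT) of the 9 genes as reported (black line), with 1 library left out (crosses) and under the other alternatives (circles). Bcl3 moves most when Srrm2+/- replicate 1 is left out, to -0.33, and Socs3 lies on both sides of 0.

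The upstream sequences of the receptor genes, Mras and Socs3 are shown because the receptor genes fell together, Mras fell most, and Socs3 is a classical target of STAT3 that did not pass the test. Each is the 250 bases before a transcription start listed by RefSeq (GRCm38.p6), read on the strand of the gene. They are chr15:7129322-7129571 (plus strand, the first of 2 starts listed for Lifr), chr13:112463820-112464069 (plus strand), chr9:99436713-99436962 (minus strand) and chr11:117969367-117969616 (minus strand). The sequences of Lifr, Mras and Socs3 lie inside the gene spans given above, so annotated starts exist farther upstream. That of Il6st ends just before its gene span. Capitals mark the letters TTCNNNGAA, the general form of a STAT binding site, which reads the same on both strands.
Lifr: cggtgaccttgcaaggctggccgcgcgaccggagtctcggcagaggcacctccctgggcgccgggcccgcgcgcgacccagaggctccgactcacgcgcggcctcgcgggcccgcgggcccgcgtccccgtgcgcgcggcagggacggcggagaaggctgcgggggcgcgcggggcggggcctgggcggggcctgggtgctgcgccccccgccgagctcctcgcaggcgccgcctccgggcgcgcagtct
Il6st: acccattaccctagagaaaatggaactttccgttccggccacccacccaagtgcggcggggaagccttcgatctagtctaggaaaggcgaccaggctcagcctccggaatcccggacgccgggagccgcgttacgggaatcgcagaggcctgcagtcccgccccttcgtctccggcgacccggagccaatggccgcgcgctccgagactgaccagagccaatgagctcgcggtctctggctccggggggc
Mras: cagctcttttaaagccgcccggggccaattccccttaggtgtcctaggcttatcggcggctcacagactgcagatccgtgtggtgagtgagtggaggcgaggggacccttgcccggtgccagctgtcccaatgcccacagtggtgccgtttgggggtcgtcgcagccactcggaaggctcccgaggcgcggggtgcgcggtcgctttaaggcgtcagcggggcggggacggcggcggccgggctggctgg
Socs3: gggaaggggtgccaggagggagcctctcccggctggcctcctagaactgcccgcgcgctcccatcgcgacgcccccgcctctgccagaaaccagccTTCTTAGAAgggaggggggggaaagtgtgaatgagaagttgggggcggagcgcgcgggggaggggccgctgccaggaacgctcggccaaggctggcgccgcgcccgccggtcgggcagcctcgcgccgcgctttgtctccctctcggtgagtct

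The 9 genes had 11 listed windows of 300 bases (250 before and 50 after the start), and 1 of them, that of Socs3, held TTCNNNGAA. The match is at position -154 counted from the RefSeq start. Over all 32851 windows of this length 8.3% held the motif. The stricter form TTCCNGGAA, whose every match is also a match of TTCNNNGAA, was in none of the 11 windows and in 1.15% of all windows. A match is a description and not a binding site, and the absence of these letters from the windows of Lifr, Il6st and Mras says nothing about STAT3 at those genes. The Socs3 window lies inside its gene span, so sequence before the outermost annotated start was not searched. The absence of the stricter form from that window likewise says nothing about STAT3 at Socs3. The upstream sequences printed above were rich in G and C, at 82.4% for Lifr, 66% for Il6st, 68.4% for Mras and 71.6% for Socs3. The 250 bases before the other start listed for Lifr, not printed, were at 50.8%.

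Levels were compared between genes as CPM per kilobase of merged exons. Merged exons take in all annotated transcripts of a gene. The order between genes thus also depends on which transcripts were expressed, which was not tested. In WT the order from high to low was Socs3 (32.9), Pim1 (14.9), Il6st (13.2), Lifr (12.3), Stat3 (10.1), Mras (5.99), Jak1 (5.67), Bcl3 (4.22) and Lif (0.503). Mras and Jak1 overlapped between libraries, and no other neighbours in this order did. In Srrm2+/- the order was Socs3 (32.7), Pim1 (17.0), Il6st (10.2), Lifr (9.80), Stat3 (9.79), Jak1 (6.78), Bcl3 (3.64), Mras (2.59) and Lif (0.719). There Il6st overlapped with Lifr and Lifr with Stat3. Both receptor chains thus stood above Stat3 per length in WT, and both overlapped with it in Srrm2+/-. There the lowest Il6st library was at 9.82 and the highest Stat3 library at 10.1. Mras went from the sixth place to the eighth.

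**Figure D3:**
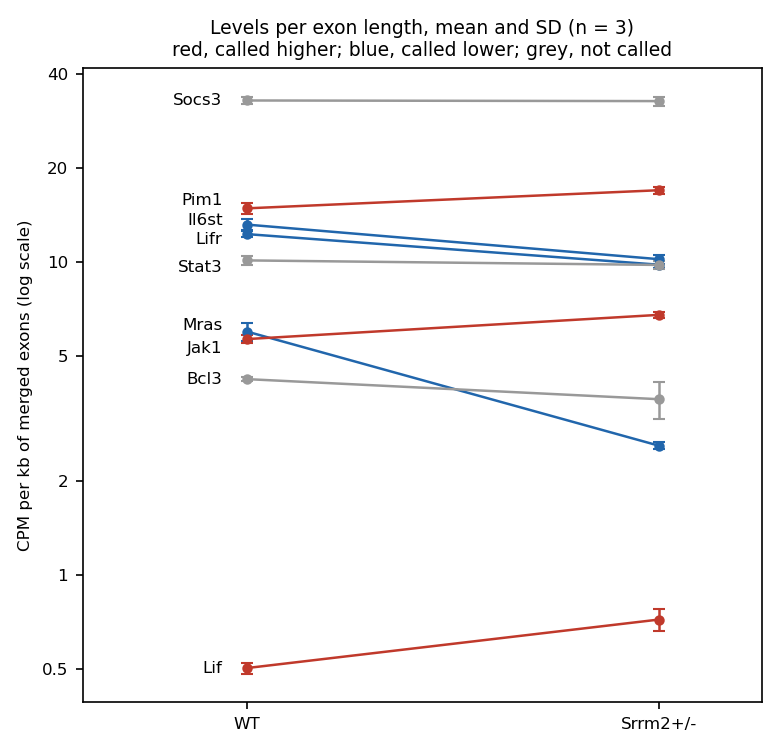
Level of the 9 genes in CPM per kilobase of merged exons, on a log axis, as mean and SD of 3 libraries of each genotype. Lines join the genotypes. Il6st, Lifr and Stat3 lie close together in Srrm2+/-, at 10.2, 9.80 and 9.79, and Mras falls from 5.99 to 2.59.

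The rest of the pathway was described with a list of 47 other genes, of which 43 passed the filter on low counts. Of these, 22 (51.2%) changed, 10 upwards and 12 downwards, against 25.3% of all genes tested (13.6% upwards and 11.7% downwards). The median log2 fold change was -0.0225. The counts by role that follow rest on few genes each and are read against the same share. The 3 that the study names from these libraries as lower genes of the response to LIF are not independent of it, and without them 19 of 40 changed, 10 upwards and 9 downwards. Il6 and Il6ra were listed at 0 counts in every library. Socs1 held at most 13 counts. Tyk2 held 0 to 7 counts in 5 libraries and 295 in Srrm2+/- replicate 2, and no difference is given for it. In estimated counts a 0 can be a failed estimate, so the values of Il6, Il6ra and Tyk2 are given as listed and not as levels.

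**Figure D4:**
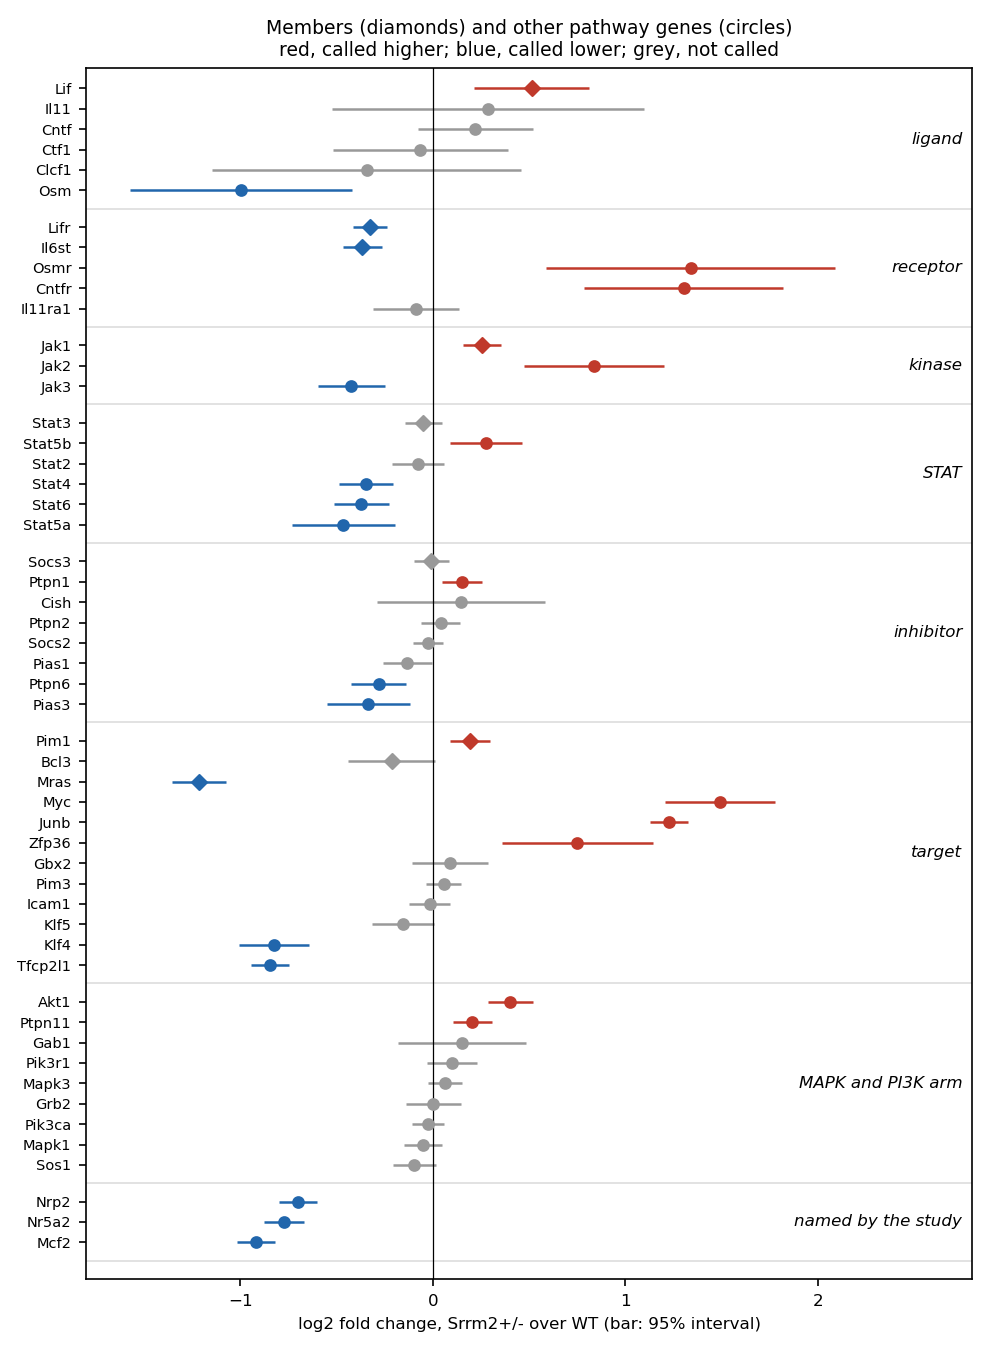
Log2 fold change (Srrm2+/- over WT) with its 95% interval for the 9 genes (diamonds) and the 43 other pathway genes tested (circles), by role. Red was called higher, blue lower and grey was not called. Myc has the largest rise, at 1.49, and Mras the largest fall, at -1.21.

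Among 5 other ligands of the family tested 1 fell, a share near that over all genes, and the other 4 did not pass the test, with log2 fold changes of -0.34 to 0.29. Osm, the gene of the cytokine oncostatin M, fell from 1.14 ± 0.0623 to 0.573 ± 0.183 CPM (n = 3 per genotype, SD), which is -0.99 with an SE of 0.25 on the log2 scale (adjusted p 0.0198 by edgeR). The call of Osm was lost without WT replicate 1 or 2 or Srrm2+/- replicate 2 or 3. Osm lies 16.5 kb from Lif on the same strand of chromosome 11, and these neighbours moved in opposite directions. Cntf, the highest of these ligands per exon length, was at 2.04 ± 0.0902 and 2.38 ± 0.132 CPM per kilobase in WT and Srrm2+/- (n = 3 per genotype, SD) and did not pass the test, and 78.4% of its 31-base words occur in transcripts of Zfp91.

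Of 3 ligand-specific receptors tested 2 rose, against the fall of Lifr and Il6st, and stood at far lower levels. Osmr, the oncostatin M receptor, rose from 0.253 ± 0.0573 to 0.643 ± 0.174 CPM (n = 3 per genotype, SD), which is 1.34 with an SE of 0.33 on the log2 scale (adjusted p 0.0169 by edgeR), and its call was lost without WT replicate 1 or 2 or Srrm2+/- replicate 2 or 3. Cntfr, the alpha chain for ciliary neurotrophic factor, rose from 0.762 ± 0.196 to 1.89 ± 0.251 CPM (n = 3 per genotype, SD), which is 1.30 with an SE of 0.23 on the log2 scale (adjusted p 0.00325 by edgeR). OSMR pairs with IL6ST, and CNTFR works with LIFR and IL6ST. Osmr lies 215.6 kb from Lifr on chromosome 15, on the opposite strand. Il11ra1 was at -0.08 (SE 0.10) and did not pass, and 57.7% of its 31-base words are shared with Gm13305.

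Of the other Janus kinases, Jak2 rose and Jak3 fell. Jak2 went from 5.25 ± 0.809 to 9.38 ± 1.86 CPM (n = 3 per genotype, SD), which is 0.84 with an SE of 0.16 on the log2 scale (adjusted p 0.00505 by edgeR). Jak3 went from 16.9 ± 1.46 to 12.6 ± 0.639 CPM (n = 3 per genotype, SD), which is -0.42 with an SE of 0.08 on the log2 scale (adjusted p 0.00386 by edgeR). Both calls were kept under all 15 alternatives.

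While Stat3 did not pass the test, 4 of 5 other STAT genes in the list did, 3 of them downwards. Stat6, the highest of them per exon length, was at 6.50 ± 0.473 CPM per kilobase in WT and 5.03 ± 0.170 in Srrm2+/- (n = 3 per genotype, SD), which is -0.37 with an SE of 0.06 on the log2 scale (adjusted p 0.00265 by edgeR). Stat4 (-0.35, SE 0.06) and Stat5a (-0.46, SE 0.12) also fell, and Stat5b rose (0.28, SE 0.08). Some of these counts could be exchanged between genes. Of the 31-base words, 23.7% of Stat4 occur in transcripts of another gene, and 11.5% of Stat5a in Stat5b. For Stat3, 2.36% occur in other genes. The call of Stat5a was lost without WT replicate 2 or 3 or Srrm2+/- replicate 1 or 2 (adjusted p up to 0.069). The call of Stat5b was lost under 9 alternatives, among them DESeq2 and the fit with the replicate number as a block (adjusted p 0.0744).

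Among 7 inhibitors tested 1 rose and 2 fell, all by small amounts. Ptpn6 (-0.28, SE 0.06), a tyrosine phosphatase gene, and Pias3 (-0.33, SE 0.09), whose product inhibits STAT3, fell. The call of Pias3 was lost without any 1 WT library and without Srrm2+/- replicate 2 or 3 (adjusted p up to 0.0960). Ptpn1 was called higher at 0.15 (SE 0.05), and this call was lost under 10 alternatives. Socs2, of the same family as Socs3 and chosen for that after its values were seen, stood at 161 ± 1.55 and 158.0 ± 1.32 CPM in WT and Srrm2+/- (n = 3 per genotype, SD) and did not pass the test (-0.0254 on the log2 scale, SE 0.03, adjusted p 0.646 by edgeR). Ptpn2, the highest inhibitor gene per exon length, did not pass either (0.0428, SE 0.04).

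In the branch that links the receptor to MAPK and PI3K signalling, 2 of 9 genes tested rose (22.2%), near the share over all genes. Akt1, a kinase downstream of PI3K, went from 33.4 ± 0.863 to 44.2 ± 2.35 CPM (n = 3 per genotype, SD), which is 0.40 with an SE of 0.05 on the log2 scale (adjusted p 0.000596 by edgeR). Ptpn11, which encodes the phosphatase SHP2, rose by 0.21 (SE 0.04) on the log2 scale. The other 7 did not pass and lay between -0.09 and 0.15. Mapk3, the highest of the branch per exon length, was at 0.0657 (SE 0.04).

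Further targets of the pathway in ESC diverged. Of 9 tested, 3 rose, 2 fell and 4 did not pass. Tfcp2l1, a naive transcription factor, fell from 341 ± 4.95 to 189.9 ± 8.67 CPM (n = 3 per genotype, SD), which is -0.84 with an SE of 0.04 on the log2 scale (adjusted p 3.49e-06 by edgeR). Klf4 fell to 56.5% of WT (-0.82, SE 0.08, edgeR adjusted p 0.000126). In contrast, Junb, an AP-1 factor gene, rose from 28.3 ± 0.770 to 66.2 ± 1.51 CPM (n = 3 per genotype, SD), which is 1.23 with an SE of 0.04 on the log2 scale (adjusted p 4.52e-07 by edgeR). Myc, a growth factor-responsive transcription factor gene, rose from 3.47 ± 0.530 to 9.77 ± 0.687 CPM (n = 3 per genotype, SD), which is 1.49 with an SE of 0.13 on the log2 scale (adjusted p 5.42e-05 by edgeR). Zfp36, an mRNA decay factor gene, rose by 0.75 (SE 0.17, edgeR adjusted p 0.0123), and it no longer passed without Srrm2+/- replicate 3 (adjusted p 0.0506). Pim3, the highest target per exon length and a relative of Pim1, was at 0.0573 (SE 0.04) and did not pass. Klf5, Gbx2 and Icam1 lay between -0.15 and 0.09 and did not pass either, although Klf5 passed without WT replicate 1.

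The genes that the study names beside Mras were all lower. Nr5a2, a nuclear receptor gene, was at -0.77 (SE 0.05), Nrp2, a neuropilin receptor gene, at -0.70 (SE 0.04) and Mcf2, which encodes a guanine nucleotide exchange factor, at -0.92 (SE 0.04). These log2 fold changes lay between those of Lifr and Mras. They describe these libraries and do not add to the evidence for a lower response to LIF, because they were picked from them.

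Some markers of other cell states differed between the same libraries, and others did not pass the test. Over all genes tested 13.6% rose and 11.7% fell. The marker counts that follow rest on few genes each and are read against these shares. Of 5 formative epiblast markers (Fgf5, Otx2, Pou3f1, Dnmt3b, Zic5) 4 rose and Zic5 fell, and their summed level was 157.7 to 180.5 CPM in WT and 281.7 to 356.2 CPM in Srrm2+/-. The summed level of 7 fibroblast markers was 3.211 to 3.339 CPM in WT and 6.661 to 10.35 CPM in Srrm2+/-. Of the 5 that could be tested 4 rose (Col1a1, Col1a2, Col3a1, Postn). Thy1, the highest of them in WT, went from 1.93 to 1.19 CPM and did not pass the test (-0.70 on the log2 scale), Lum held at most 3 counts in a library, and Dcn was at 0 counts in WT. The 5 trophectoderm markers summed to 3.734 to 4.271 and 7.828 to 9.251 CPM in WT and Srrm2+/-. Of the 3 tested only Krt7 rose, from 2.81 to 7.23 CPM, which makes up most of the difference in the sum. Elf5 (-0.33 on the log2 scale) and Tfap2a (-0.06) did not pass, and Cdx2 was at 0 counts in WT. The 6 primitive endoderm markers summed to 2.325 to 2.699 and 2.545 to 3.567 CPM in WT and Srrm2+/-, ranges that overlapped. Of the 5 tested only Dab2 rose, and Gata6, Gata4, Sox7 and Pdgfra did not pass, at 0.95, -0.0038, -0.77 and -0.39 on the log2 scale. The part of these markers in the differences of the LIF pathway genes was not tested.

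The genes most like Lifr over the 6 libraries, by Pearson correlation of log2 CPM among 12068 genes, were Ppp2r2c, Casp8ap2 and 1810013L24Rik (r of 0.999, 0.998 and 0.998), and 55 genes had an r of at least 0.99. For Stat3 they were Kansl1, Btg1 and Ccdc112 (0.993, 0.989 and 0.983), and for Socs3 Rnf214, Nop14 and Nrbf2 (0.992, 0.980 and 0.976). The 6 points share their libraries and fall into 2 genotypes, and each set was picked as the highest among many genes, so these values are a description alone.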

How the data were processed

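Total RNA was sequenced as paired 75-base reads from 3 WT and 3 Srrm2+/- libraries, grouped and numbered by their titles. The authors pseudo-aligned reads with Kallisto 0.46.1 to the GENCODE M24 mouse transcriptome, and the deposited values are estimated counts for each gene without normalization. How strand was set is not given in the sources used here. A read compatible with several transcripts is split between them by Kallisto, so similar or overlapping genes can exchange counts.

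Estimated counts were rounded. Symbols and coordinates came from GENCODE M21 (GRCm38), which matched 42156 of 42450 identifiers. Genes past filterByExpr (minimum count 10, minimum total 15) were tested with edgeR 4.0.16 (TMM, glmQLFit, glmQLFTest, two-sided, genotype alone) and Benjamini-Hochberg adjustment over all 18905 genes. SE is the absolute log2 fold change divided by the square root of F. Scripts were tested on simulated data. The 31-base words of GENCODE M21 transcripts were compared on either strand. RefSeq promoter windows were found for all 9 genes.

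The 9 genes and all lists were chosen with earlier results of these data known. Some genes of the pathway list are not reported here, and its counts leave them out. Named were the 9 genes, Srrm2, and, of the pathway list, genes called and shifted by 0.5 or more on the log2 scale, the highest gene of each role per exon length, and those behind counts of 5 or fewer. The 3 genes most correlated with Lifr, Stat3 and Socs3 were taken at a mean log2 CPM of at least 1. The tests were repeated with RLE and with upper quartile scaling, DESeq2 1.42.0, limma 3.58.1 (voom), 2 other filters, the replicate block, each library left out, an adjusted p under 0.01, and without genes of short RNA, rRNA or the mitochondrion. Per the study's methods the replicates were thawed from separately frozen batches. Replicates differed by more than sampling noise in every pair (chi-square of 14.7 or more for each degree of freedom). Correlations of log2 CPM were 0.985 to 0.989 within and 0.971 to 0.975 between genotypes.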

Additional observations from a re-analysis of the deposited data

How the results depend on the processing

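Of the 9 genes, Lifr, Il6st, Jak1 and Mras kept their call, and Stat3 was not called, under all 15 alternatives. Between 4 and 6 of the 9 were called under each, with 5 or 6 when 1 library was left out, when fewer samples entered the fit. At an adjusted p under 0.01, 4 of the 9 remained, Lif and Pim1 were lost, and 14 of the 43 other pathway genes and 2779 genes of the whole table were called, against 22 and 4781. Socs3 changed sign to 9.74e-05 where each library of one genotype had to reach 1 CPM, and ranged from -0.0287 to 0.0179 when 1 library was left out. Uncalled pathway genes that also changed sign, with their ranges when 1 library was left out, were Ctf1 (-0.193 to 0.0178), Grb2 (-0.0451 to 0.0557), Gab1 (-0.0242 to 0.282) and Icam1 (-0.0522 to 0.0132), and Grb2 was at -0.00181 with short RNA genes removed. The cause was not tested. Other pathway genes called numbered 16 to 19 when 1 library was left out.

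Replicates with the same number shared no pattern of deviation from their group means (r of -0.0285, -0.0337 and -0.03), and pairing rests on nothing but the number. With the replicate block, 6 of the 9 genes, 20 of the 43 other pathway genes and 4166 genes of the whole table were called. No scaling moved the median log2 fold change of all genes by more than 0.1. With 115 to 127 counts of Lif in WT, depth limits its precision more than that of the other 8 genes.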
